A study of Mus musculus with 45 samples.

Results

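Glycine receptors are chloride channels opened by glycine, and the genes described here encode their main forebrain parts, the protein that anchors them and a transporter that clears their ligand. The genes are Glra2 and Glra3, which encode the alpha 2 and alpha 3 subunits, Glrb, which encodes the beta subunit, Gphn, which encodes the scaffold gephyrin, and Slc6a9, which encodes the glycine transporter GlyT1. They were chosen by symbol and are 5 of the 24421 gene symbols in the count tables. RNA was sequenced from punches of the nucleus accumbens of 45 female HDID-1 mice of selection generation S35.G37, a line bred for high blood alcohol after drinking in the dark. All 4 groups carried the same viruses, injected on both sides at 0.5 uL each: a Cre-GFP virus with the CMV promoter and a DIO-hM3Dq-mCherry virus with the hSyn promoter. The hM3Dq receptor is an engineered human muscarinic receptor that clozapine N-oxide (CNO) activates, and the hSyn promoter is used to limit expression to neurons. Mice drank alcohol or water in daily sessions for 6 weeks and received CNO at 1 mg/kg in weeks 2 to 5, or vehicle throughout. The CNO groups also received vehicle in weeks 1 and 6, so CNO dosing ended before the last week of drinking. There were 12 mice in the alcohol CNO group and 11 each in the alcohol vehicle, water CNO and water vehicle groups. Age is not given in the sources used here, and no group lacked the viruses, so an effect of the injections themselves cannot be told apart from the level that all groups share.

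A glycine receptor is a ring of subunits that can be made of alpha subunits alone or of alpha with beta subunits. The alpha subunits carry most of the glycine site and set many of the channel's properties. The beta subunit binds gephyrin, which holds receptors beneath the synaptic membrane and also holds a set of GABA-A receptors. GlyT1, found mainly on astrocytes and also on some neurons, takes glycine back up and so sets its level around both glycine receptors and NMDA receptors. In the striatum, receptors with the alpha 2 subunit are known to give medium spiny neurons a tonic chloride current, and ethanol can increase glycine receptor currents.

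Libraries held 26.8 M to 39.5 M reads in genes (mean 32.1 M, SD 3.23 M, n = 45), and no pair of libraries was identical. The label of the tissue fitted its markers: the 9 medium spiny neuron markers, among them Drd1, Drd2, Adora2a, Ppp1r1b, Rgs9, Pde10a, Penk and Tac1, were detected in all 45 libraries, with a lowest value of 85.5 CPM (reads of a gene scaled to a common library total) for Drd2. Markers of cortical glutamatergic neurons were also present and uneven, with Slc17a7 between 38.1 and 641 CPM. The libraries with the highest microglia marker scores, replicates 5 and 10 of the alcohol vehicle group (7.19 and 6.64 on the log2 CPM scale) and replicate 9 of the water vehicle group (6.36), are called immune-rich; the lowest score was 5.50. Reads assigned to no annotated feature, the no-feature share, made up 15.6% to 21.9% of uniquely aligned reads. The counting mode is not given in the sources used here, so such reads need not lie outside genes. Among the middle libraries the widest gap in these shares had 24 libraries at or below 18.4% and 21 libraries at or above 19.1%. Each group had libraries on both sides. A gap of like size lay higher, between 20.8% and 21.4%, so the split need not mark separate classes.

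The alpha subunits are close relatives, so it matters whether reads can be assigned to one of them. Among annotated transcripts of Glra2 and Glra3, the longest stretch identical in both was 26 bases long and lay in coding sequence. It is shown here with 24 bases on each side, from coding base 748 to 821 of Glra2 and from 793 to 866 of Glra3, counted from the start codon; capitals mark the identical stretch, and the windows of 74 bases differ at 10 positions.
Glra2 coding window: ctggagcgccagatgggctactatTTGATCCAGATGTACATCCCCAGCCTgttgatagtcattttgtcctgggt
Glra3 coding window: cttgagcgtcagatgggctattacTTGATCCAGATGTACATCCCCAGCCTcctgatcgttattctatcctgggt
Between either alpha gene and Glrb no identical stretch was longer than 14 bases. The read length is not given in the sources used here, so how many reads fell wholly inside shared stretches is not known.

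In GRCm38 with the GENCODE vM21 annotation, Glra2 lies on the minus strand at X:165129017-165327393 and Glra3 on the plus strand at 8:55940460-56130070. Glrb lies on the minus strand at 3:80843599-80913660, Gphn on the plus strand at 12:78226379-78684772 and Slc6a9 on the plus strand at 4:117834506-117875198. All 5 are protein-coding genes. The values below are read as sums over their exons, an assumption, since the counting mode is not given in the sources used here. The strand setting of the counting is not given in the sources used here. For Slc6a9 this is a limit, since its exons share 1429 bases with those of Ccdc24 and 46 bases with those of B4galt2, both on the opposite strand; Ccdc24 was counted at a mean of 0.880 CPM and B4galt2 at 60.0 CPM. Noncoding genes on the opposite strand share 511 exon bases with Slc6a9 (Gm17114) and 147 with Gphn (Gm48226), and neither symbol is in the count tables.

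Levels of Glra2, Glra3 and Glrb are compared across mice further on, and their promoters are shown as the sequence where transcription of each begins. RefSeq (GRCm38.p6) gave a window of 250 bases before to 50 bases after the start for all 5 genes. Windows run from 5′ to 3′ on the gene's own strand, at X:165327344-165327643 (minus) for Glra2, 8:55940168-55940467 (plus) for Glra3 and 3:80913611-80913910 (minus) for Glrb; capitals mark CG dinucleotides.
Glra2 promoter: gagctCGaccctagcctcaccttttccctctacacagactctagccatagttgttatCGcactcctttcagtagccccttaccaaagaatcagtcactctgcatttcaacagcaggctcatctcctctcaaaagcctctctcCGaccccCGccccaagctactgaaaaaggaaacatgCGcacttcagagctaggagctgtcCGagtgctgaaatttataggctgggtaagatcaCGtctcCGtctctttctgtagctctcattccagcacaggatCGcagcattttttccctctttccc
Glra3 promoter: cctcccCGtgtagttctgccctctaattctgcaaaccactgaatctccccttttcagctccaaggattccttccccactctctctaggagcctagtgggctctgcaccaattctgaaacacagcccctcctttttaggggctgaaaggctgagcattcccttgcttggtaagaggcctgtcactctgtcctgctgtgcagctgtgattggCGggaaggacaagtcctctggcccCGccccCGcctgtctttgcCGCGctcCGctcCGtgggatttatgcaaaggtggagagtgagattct
Glrb promoter: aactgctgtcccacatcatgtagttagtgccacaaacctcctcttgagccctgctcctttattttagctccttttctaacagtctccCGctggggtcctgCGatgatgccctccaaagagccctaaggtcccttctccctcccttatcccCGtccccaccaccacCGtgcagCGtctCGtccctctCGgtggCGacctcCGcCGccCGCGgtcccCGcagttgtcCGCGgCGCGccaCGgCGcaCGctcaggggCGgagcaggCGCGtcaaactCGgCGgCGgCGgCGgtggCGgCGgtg
The alpha promoters held 9 CG dinucleotides in Glra2 and 8 in Glra3, near the median of 7 over 32851 mouse promoter windows, of which 45.8% and 48.7% held as many. The beta promoter held 30, a number reached by 11.7% of windows. The window of Gphn held 42, which 3.03% of windows reached, and Slc6a9 had windows at 3 start sites with 10, 14 and 8. These counts describe the letters of the windows only, and methylation was not measured.

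Levels between genes were compared per length, as CPM per kilobase of exon in the basic transcript set. Glrb was highest at 62.4 CPM per kilobase ± 5.87 (SD, n = 45), followed by Gphn at 28.0 ± 1.17, Slc6a9 at 13.2 ± 1.34, Glra2 at 10.2 ± 1.71 and Glra3 at 0.823 ± 0.169. Glrb was above Gphn, Gphn above Slc6a9 and Glra2 above Glra3 in 45 of 45 libraries, with no overlap of ranges. Slc6a9 was above Glra2 in 39 of 45 libraries, but with the exon length over all annotated transcripts it was above in 18 of 45, so the order of these neighbours is not settled. On this scale the mean of Glra2 was 12.4 times that of Glra3 and 17.6 times with the longer exon set.

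The other alpha genes had few reads. Glra1, the alpha subunit of the adult spinal cord, had 1 to 30 reads per library and a mean of 0.128 CPM per kilobase, and Glra4 had 9 to 37 reads and a mean of 0.334 CPM per kilobase. Glra3 exceeded Glra4 in 44 of 45 libraries, and Glra4 exceeded Glra1 in 44 of 45. Per kilobase the mean of Glra3 was 2.46 times that of Glra4, or 1.91 times with the longer exon set, and their ranges overlapped. Slc6a5, which encodes GlyT2, the transporter of glycinergic nerve endings, had no read in 15 of 45 libraries and at most 4 in any. Slc32a1, the vesicular transporter that loads both GABA and glycine, was at 113 CPM per kilobase ± 10.2 (n = 45).

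**Figure D1:**
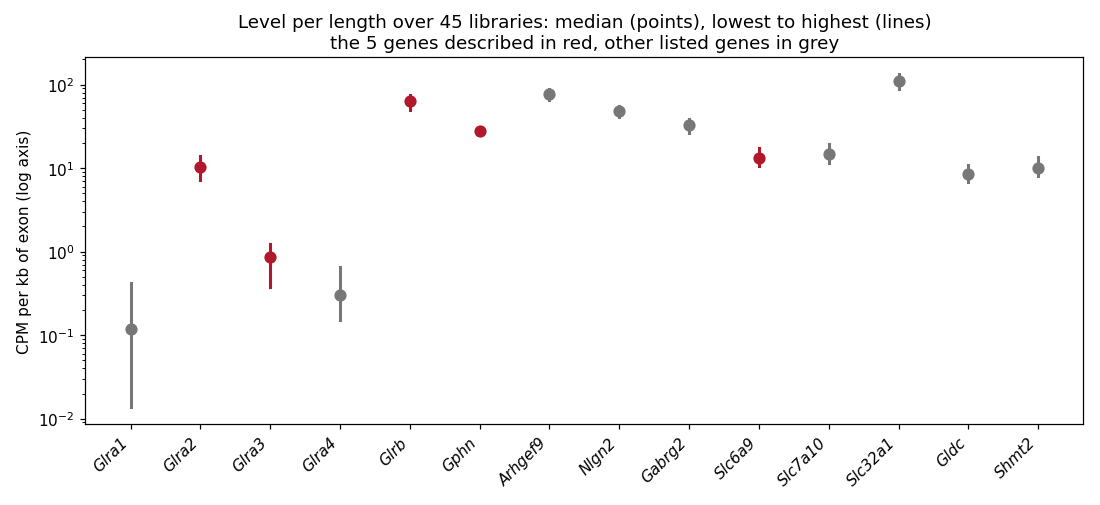
Level per kilobase of exon on a log axis for the 5 genes (red) and for other genes of glycine and GABA signalling (grey); points are medians over 45 libraries and lines run from the lowest to the highest library. Glrb, Gphn, Glra2 and Glra3 occupy separate ranges, while Slc6a9 and Glra2 overlap.

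Glra2 gave most of the alpha subunit reads in all mice. Of the reads of Glra2 and Glra3 together, Glra2 took 85.7% ± 2.24 (SD, n = 45), with a range from 80.7% to 91.2%, which leaves 8.77% to 19.3% for Glra3. Its group means were 85.4% in alcohol CNO, 84.8% in alcohol vehicle, 86.0% in water CNO and 86.6% in water vehicle mice, with ranges that overlapped. Glrb had 5.38 ± 0.676 reads for each read of these alpha genes, with a range from 4.39 to 7.19. These shares and this ratio count reads without a correction for exon length. That length is 3150 bases for Glra2, 6508 for Glra3 and 3185 for Glrb in the basic transcript set.

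In each group Glra2 was present at about 30 CPM. In alcohol CNO mice its lowest, median and highest levels were 25.7, 32.3 and 43.7 CPM (mean 33.2 ± 6.03 SD, n = 12), and in alcohol vehicle mice 23.7, 31.3 and 40.9 CPM (mean 31.0 ± 5.29, n = 11). In water CNO mice they were 26.6, 35.1 and 39.6 CPM (mean 34.5 ± 4.08, n = 11), and in water vehicle mice 22.7, 29.3 and 38.9 CPM (mean 29.9 ± 5.35, n = 11). The groups overlapped over most of their ranges, although 10 of 11 water CNO mice lay above the water vehicle median. Since the punches are bulk tissue, fewer cells of a type and less RNA per cell cannot be told apart in this or any other level given here.

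Glra3 was the lowest and the most variable of the 5 genes, with 72 to 246 reads per library. Its lowest, median and highest levels were 4.17, 5.75 and 7.96 CPM in alcohol CNO mice (mean 5.64 ± 1.12, n = 12) and 4.13, 5.66 and 6.49 CPM in alcohol vehicle mice (mean 5.51 ± 0.684, n = 11). They were 3.20, 5.86 and 6.90 CPM in water CNO mice (mean 5.65 ± 1.01, n = 11) and 2.46, 4.27 and 6.67 CPM in water vehicle mice (mean 4.61 ± 1.28, n = 11). Water vehicle mice thus had the lowest mean and the lowest single value, but their highest mouse stood above the medians of all other groups.

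Glrb, the subunit that docks the receptor on gephyrin, varied less. It ran from 182 through a median of 204 to 227 CPM in alcohol CNO mice (mean 202 ± 15.3, n = 12) and from 178 through 194 to 239 CPM in alcohol vehicle mice (mean 197 ± 18.5, n = 11). In water CNO mice it ran from 173 through 203 to 234 CPM (mean 205 ± 18.1, n = 11), and in water vehicle mice from 157 through 199 to 223 CPM (mean 190.1 ± 21.4, n = 11). The medians of the 4 groups lay close together, and the 4 lowest water vehicle mice lay between 157 and 174 CPM.

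Gphn was the steadiest. Its lowest, median and highest levels were 97.5, 106 and 111 CPM in alcohol CNO mice (mean 105 ± 4.24, n = 12), 99.3, 104 and 108 CPM in alcohol vehicle mice (mean 104 ± 3.13, n = 11), 93.2, 101 and 109 CPM in water CNO mice (mean 102 ± 5.41, n = 11) and 94.6, 102 and 107 CPM in water vehicle mice (mean 102 ± 3.97, n = 11). Its coefficient of variation over all mice was 4.18%, against 9.41% for Glrb, 10.2% for Slc6a9, 16.8% for Glra2 and 20.6% for Glra3.

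Slc6a9, which clears glycine, ran from 39.5 through a median of 52.2 to 56.1 CPM in alcohol CNO mice (mean 50.1 ± 5.36, n = 12) and from 42.8 through 49.7 to 64.2 CPM in alcohol vehicle mice (mean 49.6 ± 6.33, n = 11). In water CNO mice it ran from 42.2 through 46.7 to 54.3 CPM (mean 47.4 ± 3.65, n = 11), and in water vehicle mice from 40.0 through 46.6 to 52.0 CPM (mean 46.4 ± 3.45, n = 11). The highest mouse of all was an alcohol vehicle mouse, and both alcohol medians were above both water medians while the ranges overlapped.

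**Figure D2:**
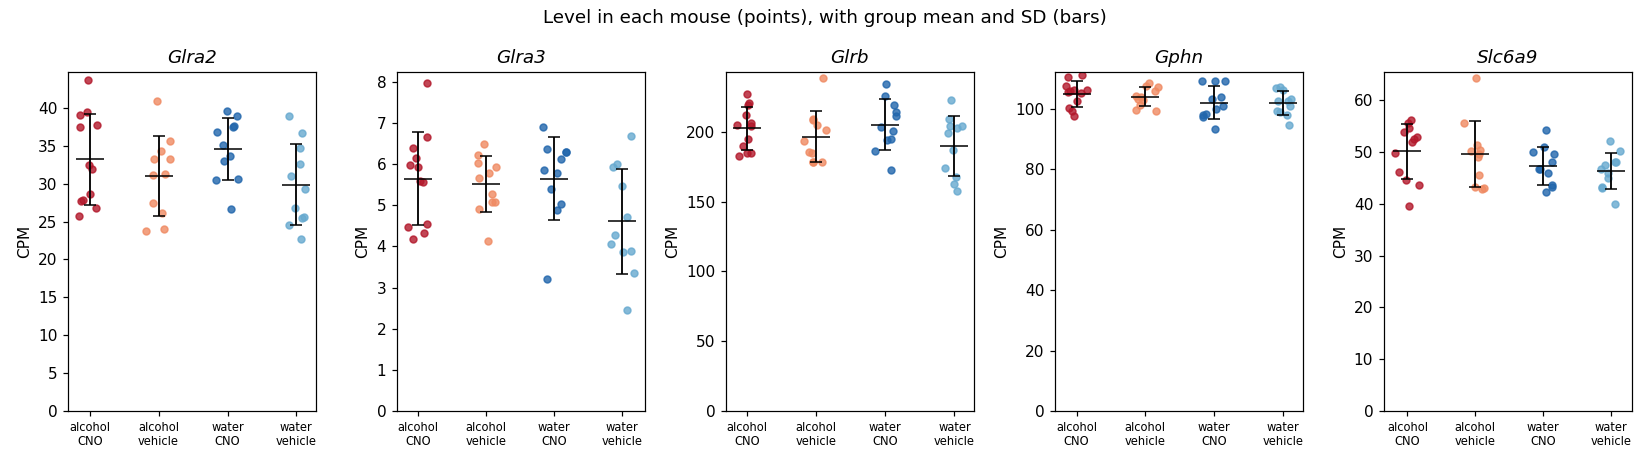
Level of each gene in CPM (y axis, from 0) in every mouse of the 4 groups (x axis); points are mice, long horizontal marks are group means and bars are 1 SD. The groups overlap for all 5 genes, Gphn has the narrowest spread, and Glra3 in water vehicle mice has the lowest mean, 4.61 CPM.

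None of the 5 genes passed an adjusted p under 0.05 in any of 7 comparisons by edgeR's quasi-likelihood test with Benjamini-Hochberg adjustment over 15852 genes, and none did by DESeq2 or voom. For alcohol against water drinking under vehicle, 0% of all tested genes passed and 8.36% had an unadjusted p under 0.05. Of the receptor genes, Glra3 had such a p: its log2 fold change was 0.26 (SE 0.13, p = 0.0479, adjusted p = 0.589), and 10 of 11 alcohol vehicle mice lay above the water vehicle median. The log2 fold changes were 0.05 (SE 0.10) for Glra2, 0.05 (SE 0.06) for Glrb, 0.03 (SE 0.03) for Gphn and 0.10 (SE 0.06) for Slc6a9. Single libraries moved some of these: without alcohol vehicle replicate 1 Glra2 was at 0.01 and Glrb at 0.01, and without alcohol vehicle replicate 3 Slc6a9 was at 0.05. All 5 signs were positive and the median was 0.05, where the median of all tested genes was 0.00; with 5 genes, a count of 1 at an unadjusted p under 0.05 does not differ in any readable way from the 8.36% over all genes.

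CNO against vehicle in alcohol drinkers called more genes than any other comparison of 2 groups, with 0.871% at an adjusted p under 0.05 and 7.32% at an unadjusted one. No gene of the glycine receptor group was among either set. The log2 fold changes were 0.10 (SE 0.10) for Glra2, 0.04 (SE 0.12) for Glra3, 0.04 (SE 0.06) for Glrb, 0.01 (SE 0.03) for Gphn and 0.01 (SE 0.06) for Slc6a9, with adjusted p = 0.996 for each by edgeR. The 95% interval of Gphn ran from -0.04 to 0.07 and that of Glrb from -0.07 to 0.15 on the log2 scale. Intervals were wider for the alpha genes, from -0.09 to 0.29 for Glra2 and from -0.20 to 0.28 for Glra3. All rest on approximate standard errors.

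In water drinkers, where 0.0694% of genes were called for CNO against vehicle and 5.54% had an unadjusted p under 0.05, both alpha genes were higher without passing the adjustment. Glra3 had a log2 fold change of 0.29 (SE 0.13, p = 0.0246, adjusted p = 0.864) and Glra2 of 0.21 (SE 0.10, p = 0.0387, adjusted p = 0.864), and for each gene 10 of 11 water CNO mice lay above the water vehicle median. Glrb was at 0.11 (SE 0.06, p = 0.0568, adjusted p = 0.864), with 7 of 11 mice above that median and a value of 0.04 with surrogate variables in the model, while Gphn was at 0.00 (SE 0.03) and Slc6a9 at 0.03 (SE 0.06). This comparison and that of alcohol under vehicle share the water vehicle mice, in which both Glra2 and Glra3 had their lowest group means, so the 2 sets of values are not separate observations.

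For alcohol against water drinking under CNO, 0% of genes passed the adjustment and 6.5% had an unadjusted p under 0.05, and no glycine receptor gene did. The log2 fold changes were -0.06 (SE 0.10) for Glra2, -0.00 (SE 0.12) for Glra3, -0.02 (SE 0.06) for Glrb, 0.04 (SE 0.03) for Gphn and 0.08 (SE 0.06) for Slc6a9. The interaction, which asks whether CNO acted differently in alcohol and water drinkers, called 0% of genes, with 3.13% at an unadjusted p under 0.05. Its largest value among the 5 genes was that of Glra3, -0.26 (SE 0.18, p = 0.150, adjusted p = 0.983), with a 95% interval from -0.60 to 0.09.

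Averaged over both treatments, alcohol against water drinking called 0% of genes, with 12% at an unadjusted p under 0.05. Slc6a9 was at 0.09 (SE 0.04, p = 0.0374, adjusted p = 0.384), with 7 of 11 alcohol vehicle mice and 8 of 12 alcohol CNO mice above the median of the matching water group, and 0.04 with surrogate variables in the model. Glra3 was at 0.13 (SE 0.09), Glra2 at -0.00 (SE 0.07), Glrb at 0.01 (SE 0.04) and Gphn at 0.03 (SE 0.02). Averaged over both fluids, CNO against vehicle called 0.889% of genes, with 9.3% at an unadjusted p under 0.05. Glra2 was at 0.15 (SE 0.07, p = 0.0298, adjusted p = 0.456), Glra3 at 0.16 (SE 0.09, p = 0.0682), Glrb at 0.08 (SE 0.04, p = 0.0588), Gphn at 0.01 (SE 0.02) and Slc6a9 at 0.02 (SE 0.04). The 3 receptor subunits had the larger values and the scaffold the smallest, none past the adjustment. With surrogate variables in the model the subunits were at 0.07, 0.04 and 0.03 in the same order.

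**Figure D3:**
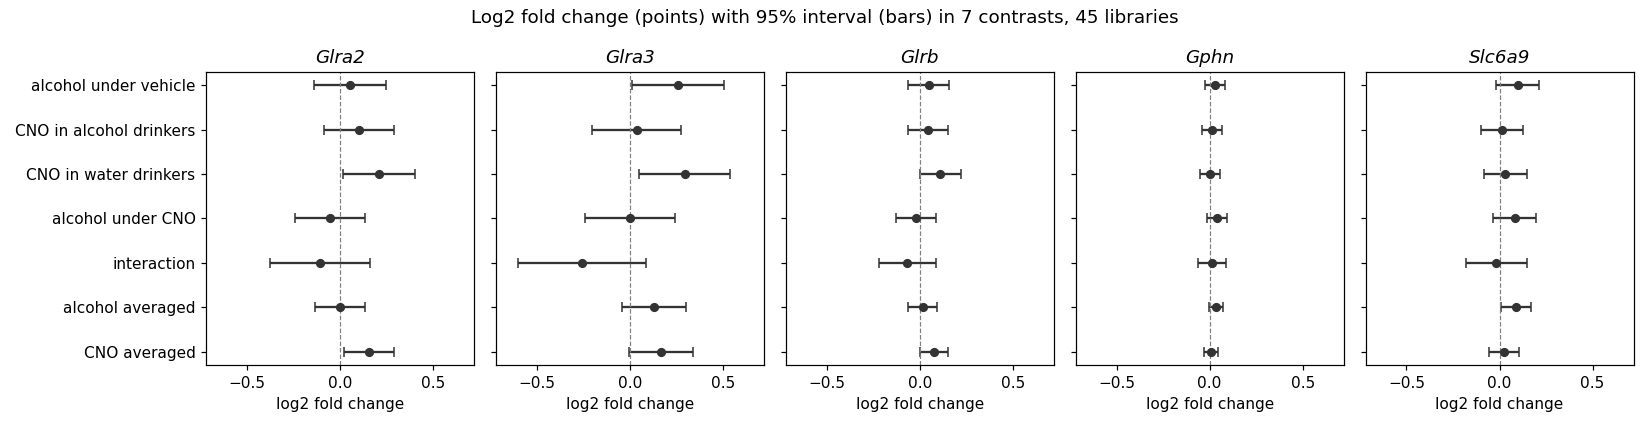
Log2 fold change (x axis) of each gene in the 7 comparisons (y axis), fitted to 45 libraries; points are estimates and bars are 95% intervals. Intervals of Gphn are the narrowest and all cross 0, and those of Glra3 are the widest, with 0.26 for alcohol under vehicle and 0.29 for CNO in water drinkers as its largest positive values.

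Genes that work with these 5 did not pass the adjustment either. In lists of gephyrin partners (13 of 13 tested), GABA-A receptor subunits held by gephyrin (6 of 6), glycine and serine metabolism (10 of 10), glycine and vesicular transport (3 of 4), the molybdenum cofactor pathway that gephyrin also serves (7 of 7) and other glycine receptor subunits (2 of 2), 0 genes were called in either direction in any of the 7 comparisons. For CNO averaged over fluids the 6 GABA-A subunits were all positive, with a median log2 fold change of 0.09. Of all 15852 tested genes 7954 were positive. An unadjusted p under 0.05 was found for 2 of the 6 subunits, where 9.3% of all tested genes had one. Their smallest adjusted p was 0.305. Gabrb2, the beta 2 subunit, was at 0.12 (SE 0.06, adjusted p = 0.493). Among gephyrin partners 9 of 13 were positive and the median was 0.01. Vasp, an actin regulator that binds gephyrin, was at -0.18 (SE 0.07, adjusted p = 0.243), and Slitrk3, an adhesion protein of inhibitory synapses, at 0.08 (SE 0.04, adjusted p = 0.453).

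The smallest adjusted p of these lists belonged to the molybdenum cofactor list. Xdh, xanthine dehydrogenase, an enzyme that needs the cofactor, was at -0.41 (SE 0.12, adjusted p = 0.118) for CNO averaged over fluids and at -0.52 (SE 0.17, adjusted p = 0.199) for CNO in alcohol drinkers. The median of its 7 genes for CNO averaged over fluids was -0.03, so Xdh did not stand for its list. In that comparison all 5 microglia markers had negative values (median -0.14), and the immune-rich libraries, all from vehicle mice, ranked 1, 2 and 6 of 45 in Xdh and 1, 2 and 3 in Vasp. Without them Xdh was at -0.27 (adjusted p = 0.823) and Vasp at -0.07 (adjusted p = 0.974). Leaving out vehicle mice that rank high makes such a negative value smaller in any case, and the cause was not tested. In glycine metabolism Shmt2, the mitochondrial enzyme that makes glycine from serine, was at -0.12 (SE 0.04, adjusted p = 0.291) for the same comparison, with 5 of 10 genes positive. Glra4 was at 0.38 (SE 0.15, adjusted p = 0.323) there and Glra1 at 0.75 (SE 0.36, adjusted p = 0.578) for alcohol under vehicle, both on few reads. For alcohol averaged over treatments 5 of 13 gephyrin partners had an unadjusted p under 0.05, where 12% of all tested genes did, with Enah, another actin regulator, at 0.08 (SE 0.03, adjusted p = 0.298) and Dynll1, a dynein light chain that binds gephyrin, at -0.09 (SE 0.04, adjusted p = 0.371).

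For each of the 5 genes the largest difference between group means was smaller than the SD over all 45 mice, and levels differed between libraries with low and high no-feature shares. On the side of the gap with a no-feature share of 19.1% or more, Glrb averaged 185 CPM ± 14.6 (n = 21), against 210.5 CPM ± 13.0 (n = 24) on the other side, and 20 of the 21 libraries lay under the median of the 24. Glra2 averaged 29.2 CPM ± 4.36 against 34.8 CPM ± 4.91, with 19 of 21 libraries under that median, and Glra3 4.95 CPM ± 1.17 against 5.71 CPM ± 0.919, with 15 of 21 under it. Slc6a9 went the other way, at 51.6 CPM ± 4.34 against 45.6 CPM ± 3.57, with all 21 libraries above the median of the 24. Gphn was at 102 CPM ± 4.26 against 104 CPM ± 4.32.

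With group means subtracted, the difference between the sides on the log2 scale was -0.25 for Glra2, -0.23 for Glra3, -0.19 for Glrb, -0.03 for Gphn and 0.17 for Slc6a9. Differences of such size in either direction were common: 24.8% of all tested genes had one as large as that of Glrb and 15.5% one as large as that of Glra2. In the same direction they were rarer for the subunits. Of all tested genes 7.25% were as low as Glrb, 2.80% as low as Glra2 and 3.43% as low as Glra3, while 19.2% were as high as Slc6a9. Within the sides the relation to the share was weaker for some genes. For Glrb Pearson's r with the share was -0.12 among the 24 libraries and -0.23 among the 21, for Slc6a9 0.17 and -0.24, for Glra2 -0.51 and -0.25, for Glra3 0.23 and -0.47, and for Gphn 0.06 and 0.13. The group means of the share were 19.3% in alcohol CNO, 18.6% in alcohol vehicle, 18.1% in water CNO and 18.6% in water vehicle mice. The group comparisons were also fitted with the share added to the model, which does not measure its part in them. With it as a covariate the smallest adjusted p of any of the 5 genes was 0.138, for Glra2 in CNO averaged over fluids. For alcohol under CNO it changed the log2 fold change from -0.06 to 0.05 for Glra2, from -0.02 to 0.06 for Glrb and from 0.08 to 0.02 for Slc6a9, none of them called in either fit.

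**Figure D4:**
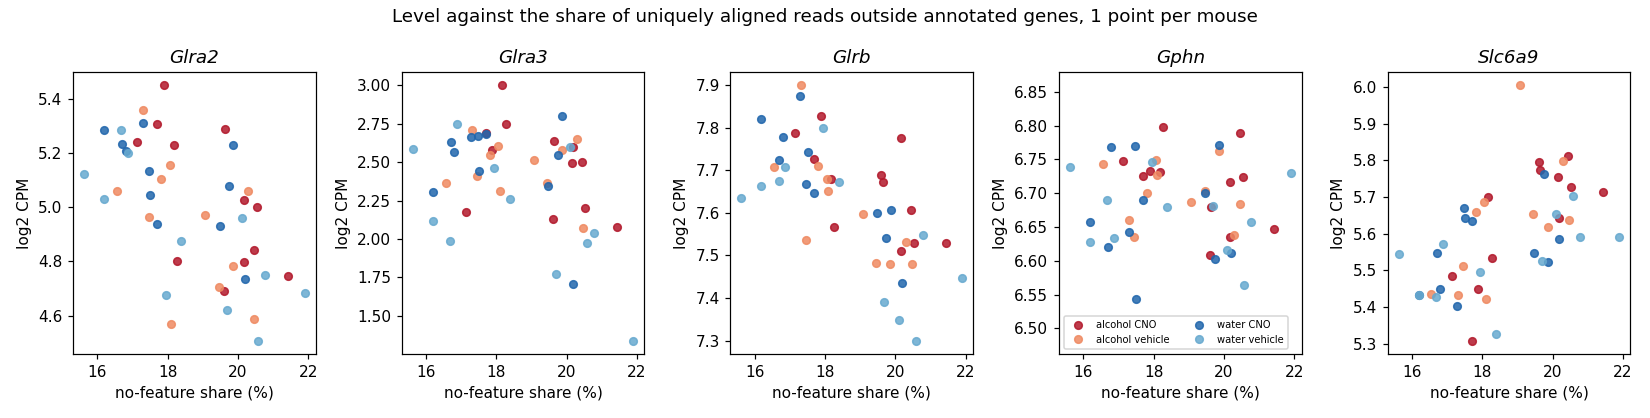
Level of each gene in log2 CPM (y axis) against the share of uniquely aligned reads assigned to no annotated feature in percent (x axis), 1 point per mouse, coloured by group. Libraries right of the gap near 19% have lower Glrb and Glra2 and higher Slc6a9, while Gphn shows little difference, 102 against 104 CPM on average.

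Levels of the genes were then correlated across the 45 mice after subtraction of group means, as 60 relations: 10 pairs of the 5 genes, 45 between a gene and a marker score, and 5 with the no-feature share. A marker score is the mean log2 CPM of a list of cell type markers, and p-values come from 100000 permutations within groups, two-sided and adjusted over the 60. Among the pairs 3 of 10 passed. Glra2 and Glrb had Pearson's r 0.65 (Spearman's rho 0.67, permutation p = 2e-05, adjusted p = 0.000171), Glra2 and Glra3 r 0.53 (rho 0.52, permutation p = 0.00029, adjusted p = 0.00193), and Glrb and Slc6a9 r -0.52 (rho -0.55, permutation p = 0.00041, adjusted p = 0.00246). Each kept its sign in all 4 groups and without the 2 libraries farthest from the median of the first gene, where r was 0.66, 0.53 and -0.45. With the means of 8 blocks of consecutive S numbers in the sample titles also subtracted, numbers whose meaning the labels do not state, r was 0.64, 0.50 and -0.32, and the last no longer passed (adjusted permutation p = 0.126).

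Pairs with r of this size were common among other genes. Counting r of either sign, 12.5% of all tested genes had an r as large in size with Glrb as Glra2 had. For Glra3 8.28% had one as large as Glra2 had, and for Slc6a9 12.4% one as large as Glrb had. When the no-feature share was subtracted, none of the 10 pairs passed: r was 0.35 for Glra2 and Glrb, 0.36 for Glra2 and Glra3 and -0.20 for Glrb and Slc6a9. Within the sides of the gap, Glra2 and Glrb had r 0.50 and 0.43, Glra2 and Glra3 0.06 and 0.71, and Glrb and Slc6a9 -0.37 and 0.03, for the lower and the higher shares in that order. Of these 3 pairs, Glra2 with Glrb was the one that stayed at a like size on both sides. Gphn, whose protein binds that of Glrb, had r 0.20 with Glrb (adjusted p = 0.386).

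Gphn varied with the markers of medium spiny neurons, the main neurons of the nucleus accumbens. Its r with their score was 0.66 (rho 0.64, permutation p = 1e-05, the smallest that these permutations can give, adjusted p = 0.000171). Among tested genes, the score's own markers included, 1.82% had an r as large in size, of either sign. Within groups the r of Gphn with this score was 0.77 in alcohol CNO, 0.76 in alcohol vehicle, 0.74 in water CNO and 0.40 in water vehicle mice. It was 0.71 with the no-feature share subtracted and 0.66 and 0.74 on the lower and higher sides of the gap. Single markers, examined after the score was seen, had r 0.70 for Drd1, the D1 dopamine receptor, 0.68 for Penk, 0.65 for Adora2a, 0.61 for Tac1 and 0.57 for Drd2, the D2 dopamine receptor, so markers of both the direct and the indirect pathway neurons were included. Rgs9 was the exception at 0.14. The single markers, here and for the interneuron score below, are the parts of a score picked for its r. Their r values describe the score and are not a separate test of it.

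Glrb varied with the interneuron score, with r 0.61 (rho 0.58, permutation p = 2e-05, adjusted p = 0.000171). An r of this size, of either sign, was reached by 0.284% of tested genes, the score's own markers included. With the no-feature share subtracted r was 0.52 (adjusted p = 0.00742), and on the lower and higher sides of the gap it was 0.41 and 0.55. The relation was uneven between groups: r was 0.04 in alcohol CNO mice, 0.73 in alcohol vehicle, 0.75 in water CNO and 0.89 in water vehicle mice, and the difference between groups was not tested. Of single markers Sst, somatostatin, had r 0.58, Npy 0.53 and Pvalb, parvalbumin, 0.46, whereas the cholinergic markers had 0.03 (Chat) and 0.27 (Slc5a7).

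In all, 7 of the 45 relations with scores passed by Pearson's r and 9 by Spearman's rho, and without the 3 immune-rich libraries 12 and 8 did. The medium spiny neuron score with Glra2 passed by rho alone (r -0.36, rho -0.40, adjusted permutation p = 0.0372 for rho). So did the cortical glutamatergic score with Slc6a9 (r -0.37, rho -0.46, adjusted permutation p = 0.0093 for rho). For Glra2, r was -0.17 in alcohol CNO, -0.63 in alcohol vehicle, 0.10 in water CNO and -0.73 in water vehicle mice. With the no-feature share subtracted neither passed (r -0.36 and -0.28). Without immune-rich libraries only the first passed, by both. The endothelial score had r -0.66 with Glrb (rho -0.66, adjusted permutation p = 0.000171), -0.62 with Glra2 (rho -0.60, adjusted permutation p = 0.000171) and 0.46 with Slc6a9 (rho 0.47, adjusted permutation p = 0.00322), and with the no-feature share subtracted these were -0.30, -0.32 and 0.15, none past the adjustment. The cortical glutamatergic score had r 0.42 with Glra2 (rho 0.50, adjusted permutation p = 0.0186) and 0.39 with Glrb (rho 0.52, adjusted permutation p = 0.0287), and 0.34 and 0.30 with the share subtracted, where neither passed (adjusted permutation p = 0.126 and 0.144). With the S-number block means subtracted, neither cortical relation passed (r 0.31 and 0.29, adjusted permutation p = 0.126 for both), nor did the endothelial one of Slc6a9 (r 0.35, adjusted permutation p = 0.0708). The astrocyte score, relevant to GlyT1 as a mainly astrocytic transporter, had r -0.25 with Slc6a9 (rho -0.21, adjusted permutation p = 0.283). This relation did not pass, and r was 0.01 with the S-number block means subtracted and 0.07 with the no-feature share subtracted. The part of such cell mixtures in the group comparisons was not tested. With the cortical, lateral septal or medium spiny neuron score as a covariate, none of the 5 genes passed an adjusted p under 0.05.

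**Figure D5:**
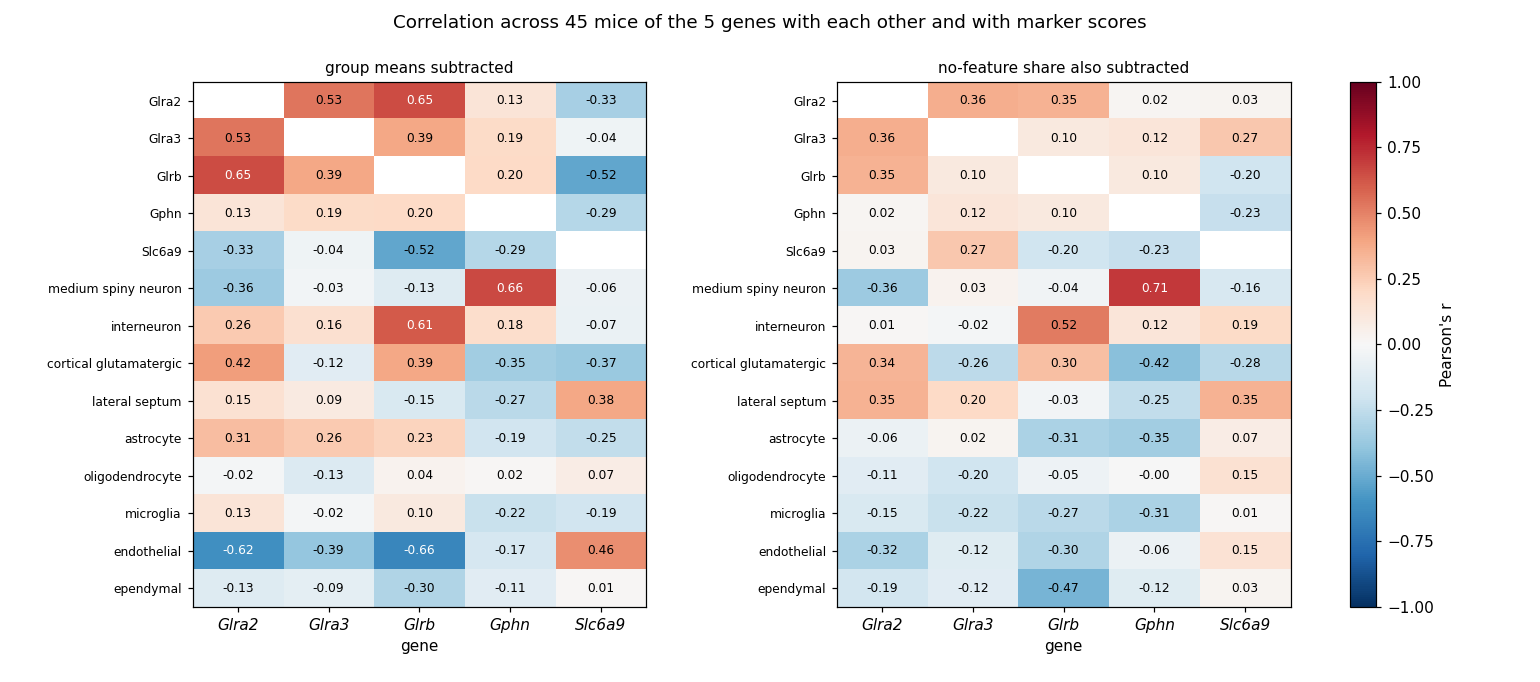
Pearson's r (colour and printed value) across 45 mice between the 5 genes (x axis) and each other or 9 marker scores (y axis), with group means subtracted (left) and with the no-feature share also subtracted (right). Gphn with the medium spiny neuron score (0.66 and 0.71) and Glrb with the interneuron score (0.61 and 0.52) stay high on both sides, while Glra2 with Glrb goes from 0.65 to 0.35.

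The genes whose levels followed each of the 5 most closely over the 45 libraries, by Pearson's r of group-centred log2 CPM, differed from gene to gene. For Glra2 they were Acsl4 (0.82), Fam169a (0.81) and Gabra3 (0.81), the last a GABA-A receptor subunit, and with the no-feature share subtracted r was 0.66, 0.65 and 0.67. For Glra3 they were Tenm1 (0.86), Gmps (0.84) and Trpc5 (0.84), and after the same subtraction 0.84, 0.80 and 0.80. For Glrb they were Rtn4 (0.91), Napg (0.91) and Sgtb (0.91), and 0.80, 0.81 and 0.78 after it. For Gphn they were Prkar2b (0.76), Sertad4 (0.76) and Lppr1 (0.75), which changed to 0.76, 0.77 and 0.74, and for Slc6a9 Slc29a4 (0.83), Sema4g (0.82) and Ebf4 (0.80), which changed to 0.81, 0.73 and 0.70. None of the 5 genes was among the closest 3 of another.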

How the data were processed

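The deposited files hold counts, whole reads per gene symbol with no normalization, 1 file per mouse. Per the submitters' processing notes, reads were aligned to GRCm38 (mm10) and counted by the authors with STAR and HTSeq 0.9.1 after FastQC; the gene annotation and the strand setting are not given here. The 5 HTSeq summary rows were kept apart from the genes; the no-feature row gave the no-feature share. Libraries held 26.8 M to 39.5 M reads in genes.

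Genes passing filterByExpr were scaled by TMM and fitted over all 45 libraries with 1 coefficient per group (edgeR 4.0.16, R 4.3.3, robust glmQLFit); calls used a Benjamini-Hochberg adjusted p under 0.05 over 15852 genes. Standard errors are approximate, the size of each log2 fold change over the root of its F statistic. Log2 CPM used a prior count of 2. DESeq2 1.42.0, limma 3.58.1 (voom) and sva 3.50.0 served as alternatives, and permutations used numpy 2.4.6. Scripts were tested on simulated data. Blocks were inferred from the S numbers of the titles, without a statement in the labels. No numbers pair mice across groups. The text names the 5 genes, genes of the fixed pathway and marker lists, and the 3 genes most like each of the 5. The genes and lists were chosen with earlier results of these data known. Single values of some listed genes are not reported here.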

Additional observations from a re-analysis of the deposited data

How the results depend on the processing

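None of 2085 alternative values of the 5 genes (15 other settings and 45 fits that each left out 1 library, over 7 comparisons) passed an adjusted p under 0.05, and the smallest was 0.138, for Glra2 in CNO averaged over fluids with the no-feature share as a covariate, against 0.384 as the smallest reported. The sign differed in 82 of 1575 values with 1 library left out and in 34 of 510 others, all of them of values that were not called. Without 1 library at a time, Glra3 ranged from 0.19 to 0.32 for alcohol under vehicle and from 0.22 to 0.35 for CNO in water drinkers. With surrogate variables (5 used) Glra3 was at 0.08 and 0.10 in these, and Glra2 and Glrb at 0.08 and 0.04 in the second; the cause was not tested. The number of gene pairs past the threshold was 3 and became 0 with the no-feature share subtracted. The number of relations with marker scores past the threshold was 7 and became 3 with that share subtracted. Of the 7, those of Gphn with the medium spiny neuron score and of Glrb with the interneuron score still passed. The remaining relation that passed then had not passed without the subtraction. Without the 3 immune-rich libraries the number was 12, and by Spearman's rho it went from 9 to 8. The settings with covariates for the lateral septal and medium spiny neuron scores, the subtracted share, the split at the gap, the single markers and the longer exon lengths were chosen after seeing the data. DESeq2 gave no adjusted p for Glra3 in alcohol averaged over treatments. No paired analysis was possible because the labels give no replicate numbers shared between groups. At 72 to 246 reads per library, counting error adds to the spread of Glra3 more than to that of the other genes.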
